A study of Mus musculus with 10 samples.

Results

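The coat proteins of lipid droplets and the enzymes that build and break down their triglyceride were followed through messenger RNA sequencing of mouse gastrocnemius, a calf muscle made up mostly of fast fibres. The 10 genes were chosen by name: the perilipins Plin2, Plin3, Plin4 and Plin5, the lipases Pnpla2, Lipe and Mgll, the activator Abhd5 and the inhibitor G0s2 of the first lipase, and the synthetic enzyme Dgat2. All 10 were present among the 18025 genes of the files, and all 10 were among the 12697 genes that passed the filter on low counts. No one of them passed the adjusted threshold when COPD was compared with control over all 10 libraries (edgeR's quasi-likelihood test, adjusted p under 0.05), a threshold that 0.063% of all genes tested passed. The highest COPD over control folds were those of Plin5, at 3.40-fold the control level, and Plin4, at 1.58-fold, and the lowest was that of G0s2, at 0.542-fold, with a wide spread.

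Muscle fibres store fatty acids as triglyceride in droplets that lie close to their mitochondria. Perilipins cover the droplet surface and set the access of lipases, while triglyceride is taken apart in steps by Pnpla2 (adipose triglyceride lipase), Lipe (hormone-sensitive lipase) and Mgll (monoacylglycerol lipase). Abhd5 (also known as CGI-58) activates Pnpla2, G0s2 binds and inhibits it, and Plin5, the perilipin of oxidative tissues, can hold Abhd5 and Pnpla2 at the droplet. Dgat2 and Dgat1 catalyse the last step of triglyceride synthesis.

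Each of 2 groups held 5 samples, all of gastrocnemius from wild-type animals of the C57BL/6 strain, with an age of 8 weeks in the labels. One group was labelled control, and the other was a model of chronic obstructive pulmonary disease (COPD) that the series title attributes to cigarette smoke. The labels give no sex, dose or length of exposure, and do not say whether a sample came from 1 animal or several, so that each p-value reflects sample-to-sample spread, which may be technical. Library totals ran from 14085900 to 17251000 expected counts (estimated reads per gene), which limits the precision of low genes such as Plin5, at 75 to 681 counts per library, and G0s2, at 32 to 654. Skeletal muscle genes were at high levels in every library: fast-fibre markers summed to 200190 to 291038 TPM, a unit that corrects for transcript length. Libraries stood apart in 2 ways. COPD replicate 5 scored -21.9 on principal component 1 (of log2 CPM), among the controls (-23.9 to -10.04), while COPD replicates 1 to 4 lay between 11.4 and 38.0. Counts of 3 Y-linked genes (Ddx3y, Eif2s3y, Kdm5d) together came to 1118 or more in all controls and in COPD replicates 2 and 3, but to 3 or 4 in COPD replicates 1, 4 and 5. Low Y-linked counts were thus found in COPD libraries only. A group difference over all 10 libraries cannot be fully told apart from a difference of sex. Results are therefore also given with COPD replicate 5 left out, and for the 7 libraries that had Y-linked counts. Replicate 5 was singled out for lying among the controls, so that leaving it out tends to widen group differences. Over all genes, 410 were called without it, against 8 with it (edgeR). Passes in that fit are thus no independent support for a difference. The 7 libraries hold the 5 controls and only COPD replicates 2 and 3, the most alike of all 45 pairs of libraries.

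The sequences before the transcription starts of the 4 perilipin genes are shown because 2 of them, Plin4 and Plin5, had the largest fold changes above 1 of the 10 genes and are neighbours on chromosome 17 with 0 annotated genes between them, while Plin2 and Plin3 lay near their control levels. Each run is the 250 bases before a start in the RefSeq promoter table (build GRCm38.p6, not the mm9 build named for the data), printed on the minus strand, on which all 4 genes lie. Capitals mark the nuclear receptor half-site AGGTCA and the CCAAT box CCAAT on either strand. The windows are chr4:86670060-86670309 for Plin2 and chr17:56290512-56290761 for Plin3. For Plin4 the window is chr17:56109783-56110032, and for Plin5 chr17:56117549-56117798, the more upstream of its 2 listed starts.
Plin4: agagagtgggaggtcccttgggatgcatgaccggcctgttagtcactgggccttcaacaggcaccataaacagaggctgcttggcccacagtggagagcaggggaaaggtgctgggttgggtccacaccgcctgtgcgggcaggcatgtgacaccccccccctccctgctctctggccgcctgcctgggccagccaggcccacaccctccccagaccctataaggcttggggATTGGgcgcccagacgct
Plin5: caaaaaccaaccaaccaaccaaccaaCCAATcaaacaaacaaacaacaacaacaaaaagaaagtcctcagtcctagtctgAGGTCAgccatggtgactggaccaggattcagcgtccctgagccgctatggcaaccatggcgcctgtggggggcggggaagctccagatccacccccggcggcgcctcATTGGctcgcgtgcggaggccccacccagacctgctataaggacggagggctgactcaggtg
Plin2: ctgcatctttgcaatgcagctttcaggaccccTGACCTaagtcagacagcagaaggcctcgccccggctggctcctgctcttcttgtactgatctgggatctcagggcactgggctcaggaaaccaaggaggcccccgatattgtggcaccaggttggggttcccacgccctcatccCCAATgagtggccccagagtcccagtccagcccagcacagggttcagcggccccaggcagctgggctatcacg
Plin3: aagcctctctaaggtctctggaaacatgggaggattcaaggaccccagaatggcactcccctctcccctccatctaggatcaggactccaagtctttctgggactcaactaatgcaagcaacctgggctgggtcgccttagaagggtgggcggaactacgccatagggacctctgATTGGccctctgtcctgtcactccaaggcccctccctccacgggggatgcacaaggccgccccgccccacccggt
Of 32851 promoter entries of the same length, 33.8% held a CCAAT box and 14.02% an AGGTCA half-site. The 4 runs above each held a CCAAT box, and those of Plin2 and Plin5 each held a half-site. Among the 12 entries of the 9 genes that matched the table, 4 held a CCAAT box and 3 a half-site, the third being that of Abhd5. The PPAR response element, a direct repeat of AGGTCA with 1 base between the copies, stood in 0 of the 12 and in 0.0335% of all entries. These matches are letters in these windows and nothing more.

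Transcript levels per length differed widely among the genes. In control muscle Pnpla2 was highest, at 316 ± 50.7 TPM, followed by Plin4 at 145 ± 23.9 TPM and G0s2 at 45.5 ± 30.2 TPM (SD, n = 5). Mgll at 24.3 ± 2.11 TPM, Plin3 at 24.2 ± 3.80 TPM and Abhd5 at 19.2 ± 3.17 TPM came next. Plin2 at 17.2 ± 2.47 TPM, Lipe at 17.1 ± 3.85 TPM and Dgat2 at 16.7 ± 4.05 TPM followed, and Plin5 was lowest at 5.91 ± 1.70 TPM (SD, n = 5 each). From G0s2 to Dgat2 in this order, the mean ± SD of each gene overlapped that of its neighbour, while those of Pnpla2, Plin4 and Plin5 overlapped no neighbour. The coat transcripts were mostly Plin4, at 75.2 ± 3.12% of the summed perilipin TPM in the controls and 78.1 ± 2.85% in COPD. The share of Plin5 was 3.11 ± 0.923% in the controls against 6.55 ± 3.23% with COPD, and that of Plin3 was 12.6 ± 1.69% against 8.79 ± 1.28% (SD, n = 5 each). In COPD muscle Plin5 averaged 17.8 ± 13.5 TPM, beside 16.3 ± 2.93 TPM for Plin2 and 17.2 ± 5.58 TPM for Lipe (SD, n = 5 each). The Plin5 mean was raised by COPD replicate 4, at 41.4 TPM, and its median was 14.3 TPM. In COPD replicates 1, 2, 3 and 5 Plin5 lay below Plin2.

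**Figure D1:**
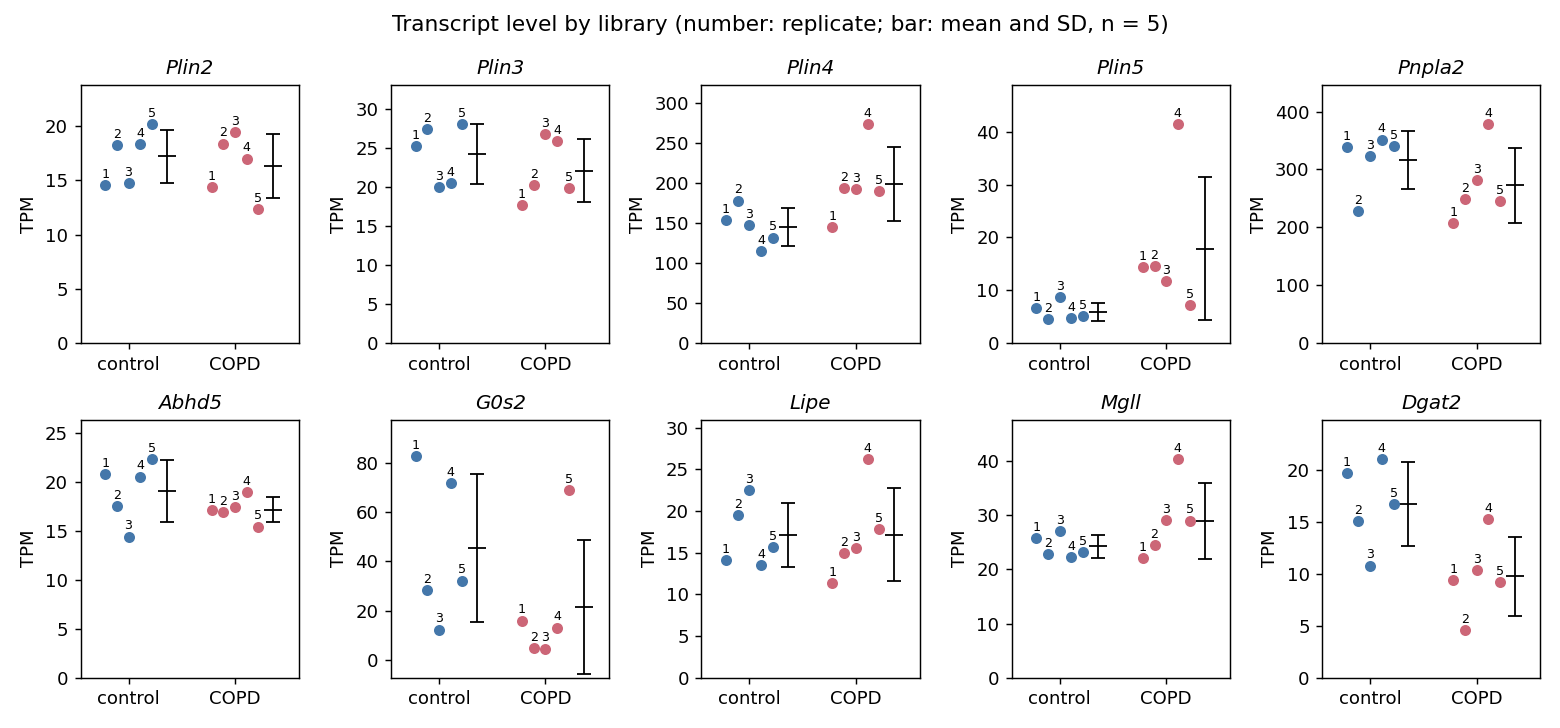
Transcript level in TPM (vertical axis, from 0 except where the error bar reaches below it) of the 10 genes in control (blue) and COPD (red) libraries; each point is a library, numbered by replicate, and bars give the mean and SD (n = 5). COPD replicate 4 holds the highest Plin5 value, 41.4 TPM, and COPD replicate 5 the one high G0s2 value of its group, 69.1 TPM.

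Plin5 was at 6.26, 4.44, 10.3, 4.55 and 5.30 CPM in control replicates 1 to 5 (CPM, a library-scaled count after TMM, not corrected for length). In COPD replicates 1 to 5 it was at 18.8, 18.6, 13.3, 46.2 and 7.84 CPM. COPD replicates 1 to 4 all lay above every control, and COPD replicate 5 lay inside the control range, so that the groups overlapped. The log2 fold change, COPD over control, was 1.77 ± 0.42 (SE; edgeR's quasi-likelihood test, adjusted p = 0.0973). Without COPD replicate 5 it was 1.98 ± 0.36 and passed (edgeR, adjusted p = 0.0178). In the 7 libraries that had Y-linked counts, of which only COPD replicates 2 and 3 were COPD, it was 1.39 ± 0.30 and passed too (edgeR, adjusted p = 0.0389). With a term for Y-linked counts over all 10 libraries it was 1.37 ± 0.51 and did not pass (edgeR, adjusted p = 0.190). DESeq2 over all 10 libraries called Plin5 higher as well (adjusted p = 0.00142). Without COPD replicate 4, the highest library, the value was 1.25 ± 0.30 (edgeR, adjusted p = 0.162).

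Plin4, the most abundant coat transcript, was at 530, 612, 581, 394 and 439 CPM in control replicates 1 to 5. In the COPD replicates it was at 633, 836, 792, 1061 and 721 CPM. Every COPD library lay above every control on this scale, for a log2 fold change of 0.66 ± 0.16 (SE; edgeR, adjusted p = 0.104), and DESeq2 called it higher (adjusted p = 0.00690). The log2 fold change was 0.70 without COPD replicate 5 and did not pass (edgeR, adjusted p = 0.0517). With a term for Y-linked counts it was 0.67 ± 0.21 and did not pass either (edgeR, adjusted p = 0.138). Of all genes tested, 2.84% had groups that did not overlap in CPM, and Plin4 was the 1 such gene of the 10. On the TPM scale its groups overlapped, at 115 to 178 TPM in control and 145 to 274 TPM in COPD. In the GRCm38 annotation its exons overlap those of Hdgfl2 on the opposite strand, and the use of strand in counting is not given in these sources. Hdgfl2 was at 37.1 and 35.7 CPM in the mean of control and COPD, far below Plin4.

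The widely expressed coat genes Plin2 and Plin3 showed no such separation. Plin2 lay between 14.4 and 19.4 CPM in control and between 13.7 and 22.4 CPM in COPD, with a log2 fold change of 0.14 ± 0.14 (SE; edgeR, adjusted p = 0.699). Plin3 lay between 24.1 and 32.1 CPM in control and between 26.02 and 36.5 CPM in COPD, with a log2 fold change of 0.07 ± 0.12 (SE; edgeR, adjusted p = 0.833). The sign of both changed when libraries were scaled by total alone or taken as TPM. Those scalings shifted the median of all tested genes to -0.17 (total alone) and -0.18 (log2(TPM + 1)), against -0.01 with TMM. Relative to that median, the log2 fold change of Plin2 was 0.15, 0.15 and 0.10 under TMM, total alone and TPM, and that of Plin3 was 0.09, 0.09 and 0.05. Plin5 stood at 1.78, 1.80 and 1.43 in the same comparison, and Plin4 at 0.67, 0.68 and 0.62.

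**Figure D2:**
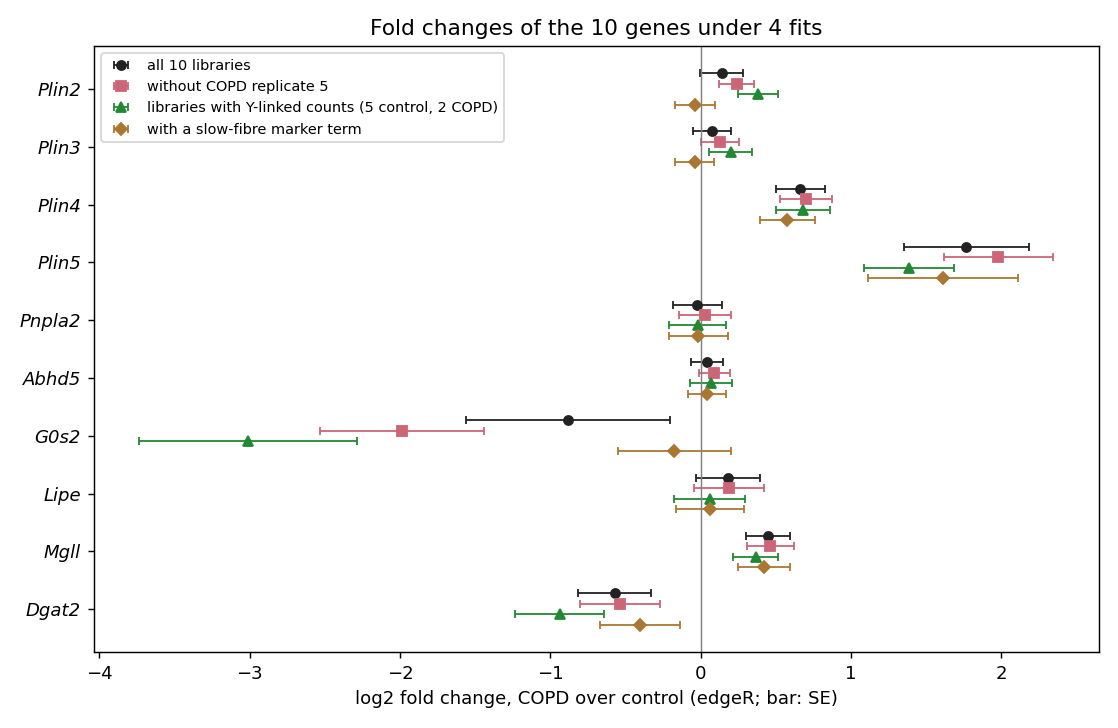
Log2 fold change, COPD over control (horizontal axis), of the 10 genes (rows) by edgeR with bars of 1 SE, over all 10 libraries (black), without COPD replicate 5 (red), over the 7 libraries with Y-linked counts (green) and with a term for the slow-fibre markers (brown). Of the genes at an unadjusted p under 0.05 over all 10 libraries, Plin4, Plin5 and Mgll lie above 0 and Dgat2 below 0 in all 4. G0s2 ranges from -3.01 to -0.17.

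Pnpla2, the lipase of the first step, was the most abundant of the 10 transcripts per length (TPM) and did not separate the groups. It was at 492, 327, 538, 509 and 477 CPM in control replicates 1 to 5. In the COPD replicates it was at 379, 448, 471, 614 and 395 CPM. Both groups covered much the same range, with a log2 fold change of -0.02 ± 0.16 (SE; edgeR, adjusted p = 0.966). Its activator Abhd5 lay between 28.9 and 38.5 CPM in control and between 29.3 and 36.6 CPM in COPD, with a log2 fold change of 0.04 ± 0.11 (SE; edgeR, adjusted p = 0.902). Lipe, which takes diacylglycerol further, lay between 19.7 and 38.2 CPM in control and between 21.3 and 43.4 CPM in COPD, with a log2 fold change of 0.18 ± 0.21 (SE; edgeR, adjusted p = 0.741). The signs of Pnpla2, Abhd5 and Lipe changed under at least 1 alternative.

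Mgll, the lipase of the last step, was at 49.7, 43.5, 59.7, 42.4 and 43.7 CPM in control replicates 1 to 5. In the COPD replicates it was at 53.2, 58.0, 64.3, 87.9 and 62.0 CPM. The groups overlapped through control replicate 3, and the log2 fold change was 0.45 ± 0.15 (SE; edgeR, adjusted p = 0.203). Without COPD replicate 5 it was 0.46, and with a term for Y-linked counts 0.36 ± 0.19 (edgeR, adjusted p = 0.129 and 0.362). The unadjusted p over all 10 libraries, 0.00983, was under 0.05, as it was for 14.6% of all genes tested. Among the 10 genes this held for 4: Plin4, Plin5 and Mgll with higher values in COPD, and Dgat2 with lower ones.

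G0s2, the inhibitor of Pnpla2, varied most from library to library. It was at 36.9, 12.5, 6.32, 31.9 and 13.9 CPM in control replicates 1 to 5. In the COPD replicates it was at 8.94, 2.66, 2.35, 6.51 and 34.1 CPM. COPD replicates 2 and 3 held the lowest values of all libraries, and COPD replicate 5 lay among the 3 highest, with control replicates 1 and 4. The log2 fold change was -0.88 ± 0.68 (SE; edgeR, adjusted p = 0.592). It was -1.99 ± 0.55 without COPD replicate 5 (edgeR, adjusted p = 0.0728) and -3.01 ± 0.73 in the 7 libraries that had Y-linked counts (edgeR, adjusted p = 0.0555), neither past the threshold. Without control replicate 1 it was -0.55 ± 0.71 (edgeR, adjusted p = 0.785).

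Slow-fibre transcripts moved with G0s2 across the libraries. The 8 slow-fibre markers, all detected, summed to 1609, 282, 270, 1122 and 308 TPM in control replicates 1 to 5. In the COPD replicates they summed to 335, 134, 185, 226 and 538 TPM. The median log2 fold change of the list was -1.20, and 3 of its 8 genes had lower values in COPD at an unadjusted p under 0.05 (edgeR, 0 past the adjusted threshold). The 3 libraries with most G0s2 also held the 3 highest sums, and the 2 with least G0s2 the 2 lowest. With the mean log2 CPM of these markers as a term in the fit, the log2 fold change of G0s2 was -0.17 ± 0.38 (SE; edgeR, adjusted p = 0.926). With the same term Plin5 was at 1.61 ± 0.50 and Plin4 at 0.58 ± 0.18, neither past the threshold (edgeR, adjusted p = 0.325 and 0.342). The markers themselves had a median log2 fold change of -1.20, so that the term can take up part of a group difference. Fibre content and group cannot be fully told apart by this fit, and the part of fibre type in these values was not tested. In bulk tissue, fewer cells of a type and less RNA per cell cannot be told apart.

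Fat cell transcripts were present at low levels and were highest in COPD replicate 5. All 10 adipocyte markers were detected in at least 1 library, and they summed to between 23.5 and 88.7 TPM in control and between 20.3 and 131 TPM in COPD. Low sums were mostly Thrsp, which varied little, at 13.25 to 19.59 TPM in control and 14.78 to 24.22 TPM in COPD. In COPD replicate 1, Thrsp was at 14.78 TPM and Adipoq at 0.26 TPM. COPD replicate 5 gave the highest sum, followed by control replicates 5, 1 and 4, at 88.7, 55.1 and 51.4 TPM. These 4 libraries were also those with most G0s2. The lowest sums were those of COPD replicate 1 and control replicate 2, which were not the libraries with least G0s2. Lep, Plin1, Acvr1c and Slc7a10 were listed at 0 in 3, 2, 5 and 5 libraries. Of the 6 brown fat markers found, nearly all of the sum (2278 to 3660 TPM in control and 2084 to 3444 TPM in COPD) was Cox8b, a respiratory chain subunit gene, at 2275 to 3659 TPM and 2082 to 3442 TPM. Cidea, Ppargc1b, Kcnk3, Elovl3 and Cpn2 were each at 1.73 TPM or less in every library. Elovl3 and Cpn2 were listed at 0 in 8 and 9 libraries, and Ucp1 was not analysed here. With an adipocyte term in the fit, Plin5 was at a log2 fold change of 1.69 ± 0.43 and G0s2 at -1.07 ± 0.52 (SE; edgeR, adjusted p = 0.125 and 0.392). The 10 macrophage markers, of which none was at 0 in any library, summed to 109 to 191 TPM in control and 44.1 to 148 TPM in COPD, and 4 of them had lower values in COPD at an unadjusted p under 0.05 (edgeR, 0 past the adjusted threshold, median log2 fold change -0.55). Without COPD replicate 5, 1 of them, the lysozyme gene Lyz2, passed as lower, with a log2 fold change of -1.15 (edgeR, adjusted p = 0.0167). The 8 endothelial markers summed to 203 to 316 TPM in control and 179 to 300 TPM in COPD. The part of macrophage and endothelial transcripts in the values of the 10 genes was not tested.

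**Figure D3:**
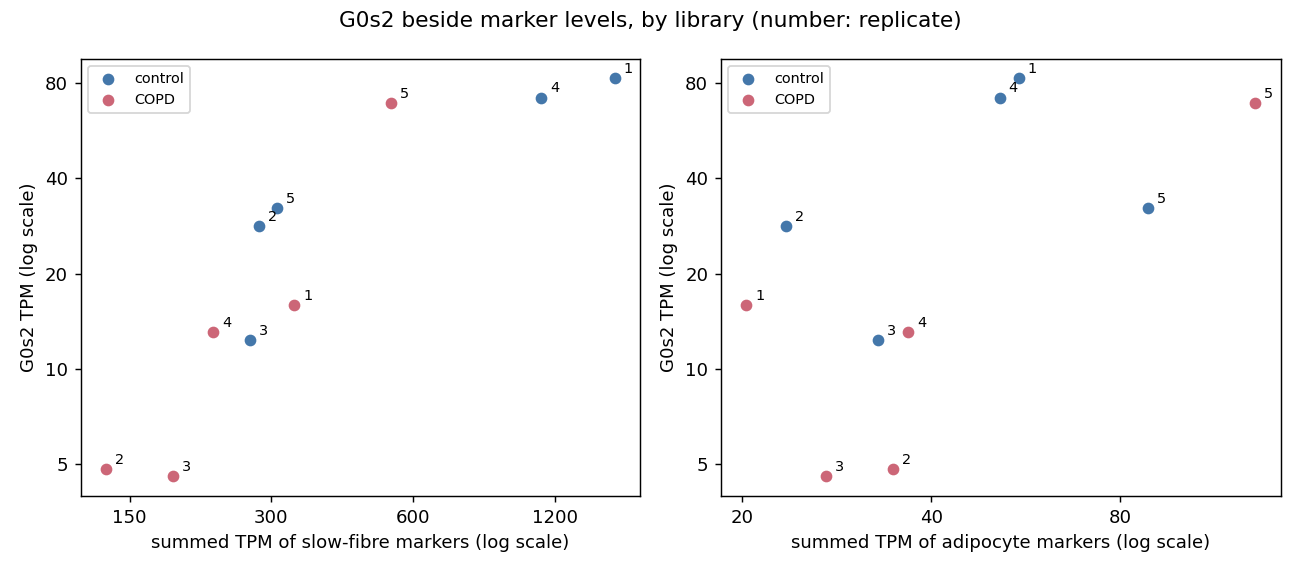
G0s2 level in TPM (vertical axis, log scale) against the summed TPM of 8 slow-fibre markers (left, log scale) and of 10 adipocyte markers (right, log scale); each point is a library, blue for control and red for COPD, numbered by replicate. Control replicates 1 and 4 and COPD replicate 5 lie at the top right of the left panel. Together with control replicate 5, they lie farthest to the right in the right panel.

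Dgat2, which adds the third fatty acid to make triglyceride, was at 24.4, 18.5, 15.3, 25.9 and 19.9 CPM in control replicates 1 to 5. In the COPD replicates it was at 14.5, 6.95, 14.7, 21.1 and 12.6 CPM. COPD replicates 1, 2, 3 and 5 lay below every control and COPD replicate 4 inside their range, for a log2 fold change of -0.57 ± 0.24 (SE; edgeR, adjusted p = 0.299). Dgat1, the other enzyme of this step, averaged 10.6 ± 0.484 CPM (control) and 10.6 ± 1.05 CPM (COPD) (SD, n = 5 each; log2 fold change -0.0016 ± 0.10, SE; edgeR, adjusted p = 0.997). The log2 fold change of Dgat2 was -0.54 without COPD replicate 5 (edgeR, adjusted p = 0.274). It was -0.94 ± 0.31 with a term for Y-linked counts and -0.40 ± 0.27 with the slow-fibre term (edgeR, adjusted p = 0.145 and 0.672). The ratio of Dgat2 to Dgat1 transcripts, by TPM, lay between 1.07 and 1.69 in the controls. In COPD replicates 1 to 5 it was 0.879, 0.424, 1.04, 1.70 and 0.827, so that 4 of the 5 lay below the controls and replicate 4 above them.

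Ratios within a library compare the regulators with the lipase they act on, free of differences in library scaling. For each Plin5 transcript, the controls held 51.7, 50.4, 37.5, 74.2 and 66.1 Pnpla2 transcripts (ratio of TPM, replicates 1 to 5). The COPD libraries held 14.5, 17.2, 23.9, 9.13 and 34.2. The 2 groups did not overlap in this ratio, and COPD replicate 5 was the nearest to the controls. How often ratios of other gene pairs fail to overlap was not counted. Its mean log2 value was -5.77 ± 0.382 for Plin5 to Pnpla2 in the controls against -4.16 ± 0.721 with COPD (SD, n = 5 each), given as a description without a test. For each G0s2 transcript, the controls held between 4.09 and 26.2 Pnpla2 transcripts and the COPD libraries between 3.56 and 61.4. The controls held 13.0 to 22.4 Pnpla2 transcripts for each Abhd5 transcript and the COPD libraries 12.1 to 19.9. Mgll made up 6.32% to 10.1% of the Pnpla2 level in control and 9.80% to 11.8% in COPD, and only control replicate 2 among the controls reached into the COPD range. Lipe made up 3.83% to 8.59% in control and 5.46% to 7.25% in COPD.

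**Figure D4:**
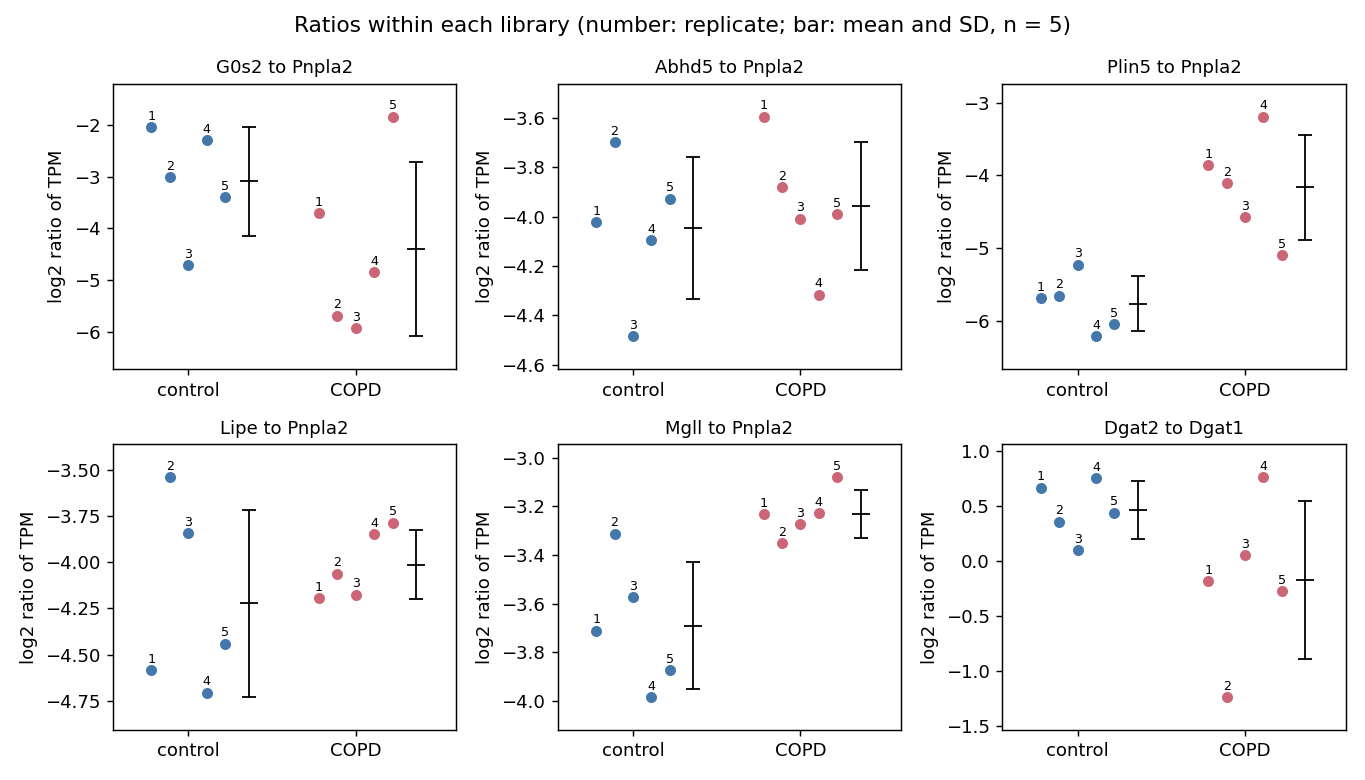
Log2 ratio of TPM within each library (vertical axes, not from 0) for 6 pairs of genes in control (blue) and COPD (red), with points numbered by replicate and bars of mean and SD (n = 5). The Plin5 to Pnpla2 ratio is the 1 pair of the 6 in which the groups do not overlap.

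The count of the 10 genes past the adjusted threshold depended on which libraries and tool were used. It was 0 by edgeR over all 10 libraries (4 at an unadjusted p under 0.05), where 0.063% of all genes tested passed. It was 2 by DESeq2 (Plin4 and Plin5), which called 2.31% of the 17925 genes it was given. It was 1 (Plin5) without COPD replicate 5, where edgeR called 3.21% of all genes, and 1 (Plin5) in the 7 libraries that had Y-linked counts, where it called 3.7%. With a term for Y-linked counts over all 10 libraries it was 0, where 165 of all genes were called higher and 51 lower (edgeR). Over all 10 libraries, 7 of the genes had a log2 fold change above 0 and 3 below, with a median of 0.11 against -0.01 for all genes tested.

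The rest of the pathway was read from 4 lists of 65 genes, of which 55 were tested. No gene of the 4 passed over all 10 libraries (edgeR), and 3 were called higher by DESeq2 (Lpin3, Pnpla3 and Pde4d). Their median log2 fold change was 0.09, and the unadjusted p was under 0.05 for 8 with higher and 3 with lower values. Unadjusted p-values under 0.05 with higher values were found for 7.94% of all genes tested, and with lower values for 6.64%. Among triglyceride synthesis genes (12 of 15 tested, median 0.10), the phosphatidate phosphatase gene Lpin3 averaged 3.91 ± 1.16 CPM (control) and 7.86 ± 1.304 CPM (COPD) (SD, n = 5 each; log2 fold change 1.01 ± 0.21, SE; edgeR, adjusted p = 0.0858). Agpat4, an acyltransferase of the same route, was at 2.42 ± 0.328 CPM and 1.04 ± 0.811 CPM (SD, n = 5 each), with COPD replicates 1 to 4 below every control and COPD replicate 5 at 2.204 CPM. Its log2 fold change was -1.19 ± 0.42 (SE; edgeR, adjusted p = 0.227). In the 7 libraries that had Y-linked counts it was -2.31 ± 0.37 and passed (edgeR, adjusted p = 0.0124), and it was -1.69 ± 0.38 without COPD replicate 5. The 7-library value rests on only 4 and 9 Agpat4 counts in COPD replicates 2 and 3. Gpat3, of the first acylation step, was at 0.84 ± 0.30 (SE; edgeR, adjusted p = 0.232).

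Among other droplet proteins (12 of 16 tested, median -0.10), Pnpla3, a lipase relative found on droplets, averaged 10.1 ± 2.35 CPM (control) and 21.5 ± 6.14 CPM (COPD) (SD, n = 5 each; log2 fold change 1.09 ± 0.22, SE; edgeR, adjusted p = 0.0780). The highest Pnpla3 values, 28.4, 25.6 and 22.4 CPM, fell in COPD replicates 1, 4 and 5, which had low Y-linked counts. COPD replicate 2 reached 18.2 CPM, while COPD replicate 3, with 12.86 CPM, lay inside the control range. The log2 fold change was 0.62 ± 0.22 with a term for Y-linked counts (SE; edgeR, adjusted p = 0.176). It was 0.63 ± 0.23 in the 7 libraries that had such counts (SE; edgeR, adjusted p = 0.168). The part of sex in this difference was not tested. Fitm1, a muscle protein of droplet formation, was at 267 ± 31.2 and 370 ± 76.3 CPM (SD, n = 5 each), and the small GTPase gene Rab18 at 73.5 ± 6.27 and 59.9 ± 7.10 CPM. Their log2 fold changes were 0.47 ± 0.15 and -0.30 ± 0.11 (SE; edgeR, adjusted p = 0.178 and 0.234). Hilpda, another inhibitor of Pnpla2, was at -0.14 ± 0.25, and the fat cell droplet gene Cidec at 0.55 ± 0.76 (SE; edgeR, adjusted p = 0.847 and 0.792). Plin1, the perilipin of fat cells, did not pass the filter on low counts and lay between 0 and 1.41 TPM in both groups.

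Among other lipases and their control (17 of 20 tested, median 0.05), the phosphodiesterase gene Pde4d averaged 256 ± 18.8 CPM (control) and 327 ± 33.1 CPM (COPD) (SD, n = 5 each; log2 fold change 0.35 ± 0.10, SE; edgeR, adjusted p = 0.154). The carboxylesterase gene Ces1d had a log2 fold change of 1.26 ± 0.53 (SE; edgeR, adjusted p = 0.296). Among genes of fatty acid uptake and activation (14 of 14 tested, median 0.14), Gpihbp1, which anchors lipoprotein lipase, was at 0.45 ± 0.20 (SE; edgeR, adjusted p = 0.316). Acsl1, which activates fatty acids, was at 0.36 ± 0.22, the transporter gene Slc27a4 at 0.15 ± 0.10 and the fatty acid receptor gene Cd36 at 0.13 ± 0.24 (SE; edgeR, adjusted p = 0.495, 0.538 and 0.854). Without COPD replicate 5, Lpin3, Pnpla3 and Fitm1 passed as higher and Agpat4 as lower (edgeR, adjusted p = 0.0272, 0.0376, 0.0489 and 0.0382). The groups did not overlap in CPM for 3 of the 55 tested genes, all higher in COPD: Lpin3, Pde4d and Agpat1, the last named after its values were seen. Of all genes tested, 1.29% had groups that did not overlap and were higher in COPD.

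**Figure D5:**
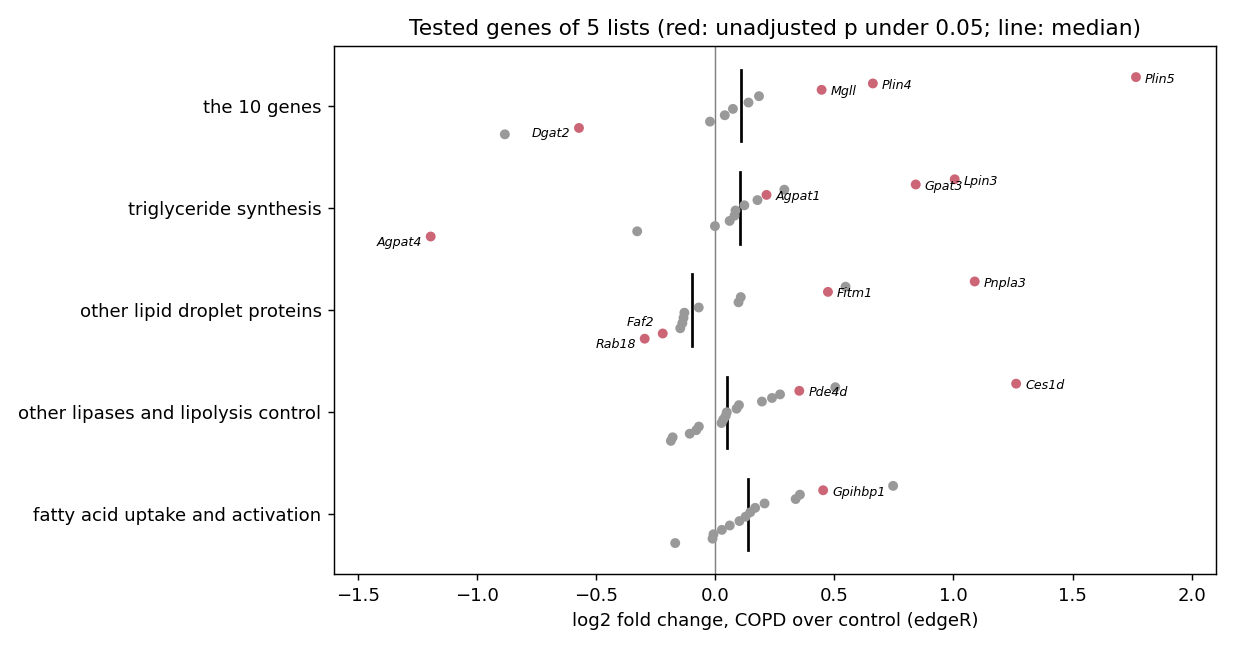
Log2 fold change, COPD over control (horizontal axis, edgeR), of each tested gene of the 10 and of the 4 pathway lists (rows); black lines are medians and red points have an unadjusted p under 0.05 and carry their names. Medians lie between -0.10 and 0.14, and Plin5, at 1.77, lies farthest to the right.

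COPD replicate 4 held the highest CPM of 5 of the 10 genes: Plin4, Plin5, Pnpla2, Lipe and Mgll. It also held the highest value of 15 of the 55 other pathway genes, Cd36, Acsl1, Fabp3, Slc27a1 and Gpihbp1 among them, against 9.498% of all genes tested. Control replicate 4 held the lowest value of 4 of the 10 (Plin3, Plin4, Lipe and Mgll) and of 11.6% of all genes tested.

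For 9 of the 10 genes, the gene with the most similar pattern was taken as the highest Pearson r of log2 CPM over the 10 libraries, among 9033 others with a mean of at least 5 CPM. For Plin5 it was Mlycd, which codes for malonyl-CoA decarboxylase (r = 0.970), and for Plin4 it was Prkag2, a subunit of AMP-activated kinase (r = 0.968). For Mgll it was the citric acid cycle gene Idh3a (r = 0.950), for Lipe Sdcbp (r = 0.974), for Plin2 Sctr (r = 0.955) and for Plin3 Adam17 (r = 0.892). For Pnpla2 it was the connexin gene Gja1 (r = 0.873), for Abhd5 Mcfd2 (r = 0.908) and for Dgat2 Homer2 (r = 0.926). These values describe 10 libraries that share the group difference and the libraries that stood apart, and each is the highest of many.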

How the data were processed

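Messenger RNA of 5 control and 5 COPD gastrocnemius samples was measured. The authors deposited expected counts per gene (estimates that need not be whole, 30.7% of values not whole) and TPM for the same 18025 genes. Build mm9, RSEM 1.2.12, Bowtie2 2.2.5, HISAT2 2.0.4 and DESeq2 1.4.5 were used, per the submitters' processing notes, which are held here without role or order. Strand use in counting is not given in these sources.

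Expected counts were rounded, filtered with filterByExpr and scaled by TMM. The groups were then tested against each other in R 4.3.3 by quasi-likelihood (glmQLFit and glmQLFTest of edgeR 4.0.16), with Benjamini-Hochberg adjustment over 12697 genes and a threshold of 0.05. Standard errors were taken as the size of the log2 fold change over the square root of F. Fold changes are COPD over control. Alternatives were DESeq2 1.42.0, other scalings and filters, limma 3.58.1 (voom with sample weights, and log2(TPM + 1) and log2(TPM + 0.1) with genes of at least 1 TPM in 5 libraries or no filter), a replicate block, terms for Y-linked counts (1 CPM or more) and marker levels, and leaving out each library. The procedure was tested on simulated data. All 45 pairs of libraries differed beyond counting noise (chi-square over its degrees of freedom 18.1 to 124). The 10 genes, the lists and the tests were chosen with earlier results of these data known. All 10 genes are named. From each pathway list, genes past the threshold, or else the 3 with the smallest p, are named, with Dgat1, Plin1, Cidec, Hilpda and Cd36. Similar genes exclude predicted and clone-named ones. Of the genes these rules name, 2 are not reported here. Promoter sequences are those of RefSeq (GRCm38.p6), where 9 of the 10 genes matched. 11 motifs were searched on both strands of the 250 bases before each start. Beside the 3 in the text, these were the E-box CACGTG (6.02% of all entries), the FoxO site GTAAACA (3.17%), the cyclic AMP response element TGACGTCA (1.55%) and its half-site TGACG (17.8%), the glucocorticoid receptor half-site AGAACA (16.1%), the D-box TTATGTAA (0.819%), the MEF2 site (0.103%) and the TATA box TATAAA (12.4%). They stood in 2, 2, 0, 2, 1, 0, 0 and 0 of the 12 entries. Figures were drawn with matplotlib 3.10.9.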

Additional observations from a re-analysis of the deposited data

Results flagged for a closer look

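In groups of 5 libraries, 1 library lay far from the other 4 (a gap to the nearest above 0.71 of the group's range, Dixon's 95% value) in 7 of the 64 groups examined over the named genes that passed the count filter and the ratios. Chance flags about 1 in 20 groups, and genes measured in the same libraries are not independent. Plin5 was at 41.4 TPM in COPD replicate 4, where Acsl1 was at 144 TPM and Gpihbp1 at 138 TPM. G0s2 was at 69.1 TPM in COPD replicate 5. Pnpla2 was at 227 TPM in control replicate 2, the lowest of its group. Rab18 was at 26.9 TPM and Dgat1 at 10.1 TPM in control replicate 3, each the lowest of its group.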

How the results depend on the processing

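Over 25 alternatives, the direction of Plin4, Plin5, G0s2, Mgll and Dgat2 held in all. Scaled by library total alone, log2 fold changes turned to -0.019 (Plin2), -0.079 (Plin3), -0.12 (Abhd5), -0.025 (Cd36) and -0.0063 (Slc27a4). As log2(TPM + 1), with or without a filter, they were -0.080 (Plin2), -0.13 (Plin3), -0.13 (Abhd5), -0.017 (Lipe), -0.15 (Cd36) and -0.049 (Slc27a4), and as log2(TPM + 0.1) -0.085, -0.14, -0.14, -0.019, -0.16 and -0.059. With voom, Pnpla2 was at 0.026, Cidec at -0.16 and Cd36 at -0.033, and with the slow-fibre term Plin2 was at -0.035, Plin3 at -0.040 and Dgat1 at 0.040. Dgat1 was at 0.0051 with DESeq2, 0.0065 with RLE scaling, 0.028 with a Y-linked term, 0.037 in libraries with Y-linked counts and 0.00041 with the adipocyte term. Cidec and Cd36 were at -1.41 and -0.32 with the Y-linked term and at -1.40 and -0.31 in those libraries. Leaving out each library gave ranges of -0.15 to 0.041 (Pnpla2), -0.0077 to 0.097 (Abhd5), -0.040 to 0.046 (Dgat1), -0.15 to 0.25 (Cd36) and -0.51 to 1.14 (Cidec). The cause of these turns was not tested.

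Of the 10 genes, 2 were called higher with DESeq2 and 1 in libraries with Y-linked counts, and leaving out each library gave 0 to 1. Among pathway genes, 3 were called higher with DESeq2, 1 higher (Lpin3) and 1 lower (Agpat4) with voom, and 1 lower (Agpat4) in libraries with Y-linked counts, and leaving out each library gave 0 to 3 higher and 0 to 1 lower. Over all genes, 7 higher and 1 lower became 263 and 151 with DESeq2, 2 and 4 with library total alone, 14 and 3 without a filter, 4 and 3 with at least 5 CPM in 5 libraries, and 86 and 51 with voom. They were 11 and 86 with log2(TPM + 1), 0 and 2 with it unfiltered, 165 and 51 with the Y-linked term, 16 and 5 with the adipocyte term, and 336 and 152 in libraries with Y-linked counts. Upper-quartile scaling gave 3 lower, log2(TPM + 0.1) 55 lower and the slow-fibre term 0 higher. Leaving out each library gave 0 to 263 higher and 0 to 147 lower, the most without COPD replicate 5. With a replicate block, 6 genes were called higher and 1 lower, 0 of the 10 among them, and Plin5 was at 1.57 (edgeR, adjusted p = 0.206). Same-numbered libraries had correlations of -0.14 to 0.041 in their deviations and none matched its own number best. No pairing by number was seen, though these few correlations cannot exclude a shared batch.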
